A study of Mus musculus with 2 samples.

Results

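Gluconeogenesis, insulin signalling and hepatic fasting signals were followed in mouse liver through 10 genes: the gluconeogenic enzymes Pck1, G6pc and Fbp1, the insulin receptor Insr with its substrates Irs1 and Irs2, the transcriptional regulators Foxo1 and Ppargc1a, and the secreted proteins Igfbp1 and Fgf21. Every probe set that the platform annotation assigns to 1 of these symbols alone was taken, which gave 21 of the 34945 probe sets named for a single gene, and all 10 genes among 18193 genes were represented. The array measured liver RNA of male C57Bl/6J mice that were 9 weeks old on arrival and then fed for 112 days, first on a DEF diet, poor in n-3 polyunsaturated fatty acids because its soybean oil had been replaced by sunflower oil. The n-6 to n-3 ratio was 127.2 in that diet and 6.9 in the control diet (CT). In the DEF/FOS group the depleted diet went on for the last 10 days with fructooligosaccharides, a fermentable fibre, added to tap water for an intake of 0.25 g per day. In the DEF/CT group the depleted diet was exchanged for the control diet over the same 10 days. Both groups therefore share the long depletion, and they differ in fibre and in dietary oil together, so that neither can be told apart from the other. The series' title puts the comparison in the question of how gut microbes bear on the fatty liver of n-3 depletion. The treatment protocol counts 8 mice in each group and the extract protocol 4 to 8 mice per pool, and the RNA of a group was mixed in equal amounts and put on 1 array. Since each group has 1 array, there are no replicates, no SD between them and no test, and every difference below is between these pools.

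In fasting, the liver makes glucose from lactate, glycerol and amino acids. The steps that set gluconeogenesis apart from glycolysis are catalysed by pyruvate carboxylase, PEPCK (Pck1), fructose bisphosphatase (Fbp1) and glucose 6-phosphatase (G6pc). Glucagon acts through cAMP and CREB to switch these genes on, helped by the coactivator PGC-1α (Ppargc1a). Insulin acts through its receptor, the IRS proteins and AKT, which phosphorylates FOXO1, moves it out of the nucleus and so lowers transcription of G6pc, Pck1, Igfbp1 and Irs2. FGF21 is released by the liver in fasting under PPARα, and also under carbohydrate and amino acid stress signals, and acts through FGF receptors with the coreceptor β-Klotho (Klb).

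The promoters of 4 of the 10 genes are shown because they belong to genes known to respond to insulin, cAMP or fasting signals: Igfbp1 and Fgf21, which had the largest positive differences, and Pck1 and G6pc, which had small negative ones. RefSeq promoters of the mouse build GRCm38.p6 were matched for 9 of the 10 genes, all but Insr. The 250 bases before the transcription start are printed 5′ to 3′ on the gene's strand, and capitals mark every match, on either strand, to the motifs CAAAACA (insulin response element core), GTAAACA (forkhead core), TGACG (part of the cAMP response element), CACGTG (E-box) and AGGTCA (nuclear receptor motif).
Igfbp1, chr11:7197537-7197786, plus strand: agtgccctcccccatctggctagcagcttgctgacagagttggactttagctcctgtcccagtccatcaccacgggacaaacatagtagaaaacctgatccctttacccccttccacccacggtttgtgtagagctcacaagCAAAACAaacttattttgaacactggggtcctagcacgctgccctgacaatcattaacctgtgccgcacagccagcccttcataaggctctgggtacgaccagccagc
Fgf21, chr7:45615491-45615740, minus strand: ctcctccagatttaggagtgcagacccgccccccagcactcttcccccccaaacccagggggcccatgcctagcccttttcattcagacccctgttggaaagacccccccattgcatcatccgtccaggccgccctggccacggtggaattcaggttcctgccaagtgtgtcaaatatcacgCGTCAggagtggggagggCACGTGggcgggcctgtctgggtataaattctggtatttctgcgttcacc
Pck1, chr2:173152823-173153072, plus strand: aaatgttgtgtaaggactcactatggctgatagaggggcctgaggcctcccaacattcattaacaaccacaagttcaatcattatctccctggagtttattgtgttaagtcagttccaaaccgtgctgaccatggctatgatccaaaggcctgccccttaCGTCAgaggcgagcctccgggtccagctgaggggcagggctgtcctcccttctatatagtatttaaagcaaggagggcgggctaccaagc
G6pc, chr11:101367466-101367715, plus strand: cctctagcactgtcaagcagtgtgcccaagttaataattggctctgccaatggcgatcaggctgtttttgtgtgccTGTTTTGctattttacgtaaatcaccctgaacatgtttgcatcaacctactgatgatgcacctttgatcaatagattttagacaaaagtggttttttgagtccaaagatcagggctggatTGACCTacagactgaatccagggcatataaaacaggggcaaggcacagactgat

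CAAAACA lay at -108 to -102 before the start of Igfbp1 and, on the opposite strand, at -174 to -168 of G6pc, and it also occurred in the windows of Irs1 and Irs2. It was present in 4 of the 9 matched promoters and in 5.56% of 32851 RefSeq promoter windows of the same length. TGACG, read on the opposite strand, lay at -90 to -86 of Pck1 and at -68 to -64 of Fgf21, and it also occurred in Irs1 and Ppargc1a, against 17.8% of all windows. CACGTG lay at -50 to -45 of Fgf21 and also occurred in Irs1, where it overlapped TGACG, and Irs2, against 6.02% of all windows. AGGTCA was found, on the opposite strand, at -54 to -49 of G6pc among the 9 windows, against 14.0% of all windows, and GTAAACA in 0 of the 9, against 3.17%. The genes with and without CAAAACA lay on both sides of 0 in the expression comparison: Igfbp1 and G6pc both hold it and differed in opposite directions. Motifs such as the insulin response element core are named for responses that some of these genes are known for. The shares beside all windows are therefore no test of enrichment. A match describes the letters of the window and is not evidence of binding.

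The values are linear MAS5 intensities in arbitrary units, and where a pair of signals is given the DEF/FOS pool comes first. A floor of 19.4, the median signal over all probe sets that are not array controls, set apart low signals. It is not a detection call. All 10 genes lay above it by their brightest probe set, as did 17 of the 21 probe sets, and 11163 genes passed it in all. A difference is the log2 signal of the DEF/FOS pool minus that of the DEF/CT pool, centred on the median of the probe sets above the floor, so a fold and the quotient of its signals need not be identical. The signal of one probe set cannot be set against that of another, so no order of levels between genes is given.

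**Figure D1:**
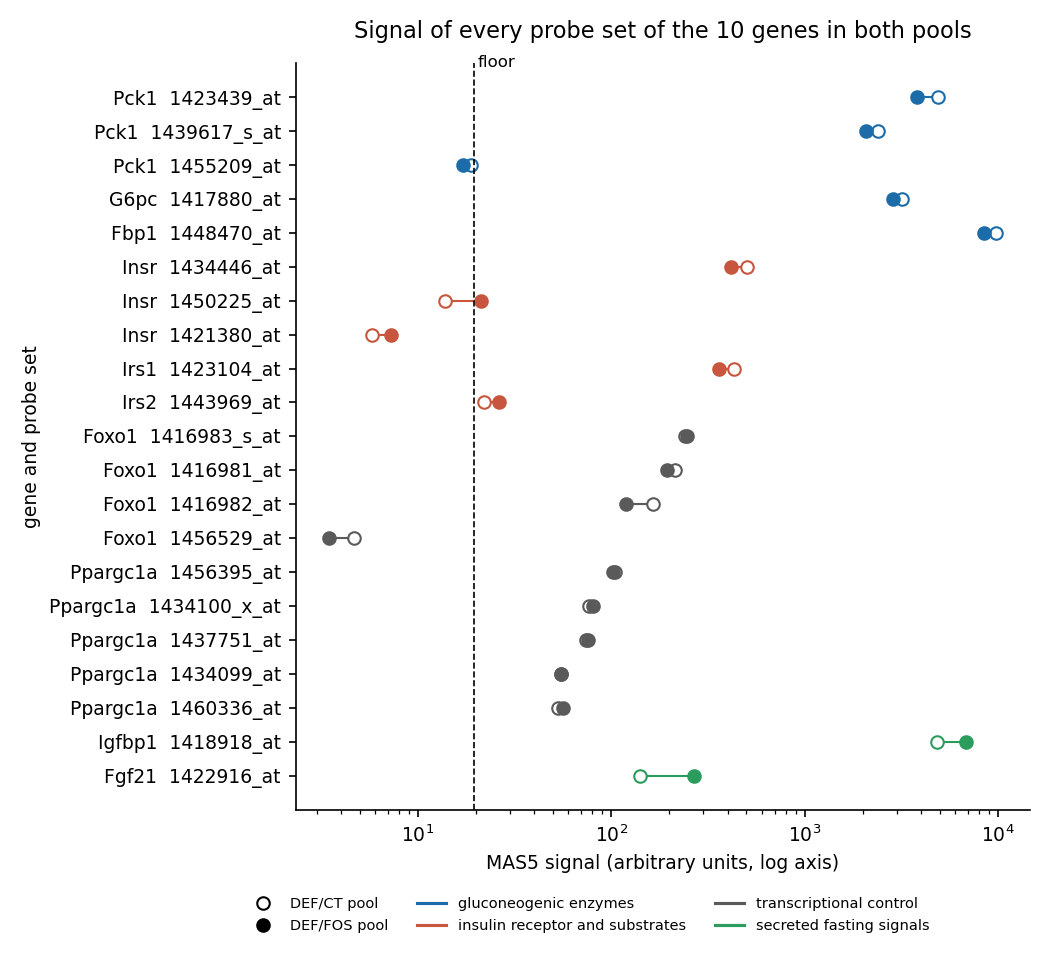
MAS5 signal (arbitrary units, log axis) of the 21 probe sets of the 10 genes, with open circles for the DEF/CT pool, filled circles for the DEF/FOS pool, 1 array each, colours for the role of the gene and a dashed line at the floor of 19.4. The filled circles lie to the right for Fgf21 and Igfbp1, to the left for all probe sets of Pck1, G6pc and Fbp1, and nearly on the open circles for Ppargc1a.

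Of the 10 genes, 1 exceeded 1.5-fold upwards in the DEF/FOS pool, Fgf21, and 0 downwards. The corresponding shares over all genes above the floor were 6.75% upwards and 7.82% downwards, so the count of 1 in 10 is close to the background. That background had lower signals, with a median of 123 (DEF/FOS) and 122 (DEF/CT), beside 387 and 468 for the 10 genes. At 2-fold the counts were 0 and 0 of the 10 genes, against 1.74% higher and 2.19% lower over all genes. The median difference of the 10 genes was -0.08 on the log2 scale, beside 0.00 over all genes above the floor, with 4 positive and 6 negative. What follows therefore describes the genes one by one.

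The secreted fasting signals had the largest positive differences of the 10 genes. Fgf21, the hepatic hormone that acts on adipose tissue and brain, had a signal of 267 (DEF/FOS) and 141 (DEF/CT) by its single probe set. It was 1.91-fold higher, a log2 difference of 0.93. Of the 11163 genes above the floor, 246 or 2.20% had a positive difference at least as large, and among genes with signals from 122 to 324 it was 1.11%. As the only available measure of technical error, the SD among probe sets of one gene was 0.29 on the log2 scale over 1218 genes in that range of signal, which leaves out the spread between mice and between arrays. The difference of Fgf21 was 3.21 times that SD.

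Igfbp1, a circulating binding protein of the insulin-like growth factors whose transcription insulin suppresses, had a signal of 6855 (DEF/FOS) and 4833 (DEF/CT). It was 1.43-fold higher, a log2 difference of 0.52, which does not reach 1.5-fold. At signals above 324 the SD among probe sets of one gene was 0.21, and the difference of Igfbp1 was 2.43 times that SD. Among genes in that range 3.98% had a positive difference at least as large, beside 8.47% over all genes. Both secreted proteins thus stood higher in the DEF/FOS pool, each by a single probe set with no second probe set to set beside it.

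The gluconeogenic enzymes lay slightly lower in the DEF/FOS pool, by less than 1.5-fold in each case. Pck1, which makes phosphoenolpyruvate from oxaloacetate, had signals of 3819 (DEF/FOS) and 4913 (DEF/CT) by its brightest probe set, 1.27-fold lower. Its second probe set read 2081 and 2407, 1.14-fold lower, and the remaining one, below the floor at 17.2 and 18.8, carries no order. The probe sets of Pck1 above the floor were thus lower together, at log2 differences of -0.35 and -0.20.

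G6pc, which releases free glucose from glucose 6-phosphate in the endoplasmic reticulum, had signals of 2880 (DEF/FOS) and 3175 (DEF/CT), 1.09-fold lower. Fbp1, which makes fructose 6-phosphate, had signals of 8480 and 9819, 1.15-fold lower. The log2 differences of G6pc and Fbp1, -0.13 and -0.20, were smaller than the SD of 0.21 among probe sets of one gene at such signals. That of Pck1 was 1.63 times the same SD. All 4 probe sets of the 3 enzymes above the floor were lower in the DEF/FOS pool, between -0.35 and -0.13. Among genes of signal above 324, 8.28% had a negative difference at least as large as Pck1, 18.1% one at least as large as Fbp1 and 25.0% one at least as large as G6pc, so that values of this size were common on these arrays.

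**Figure D2:**
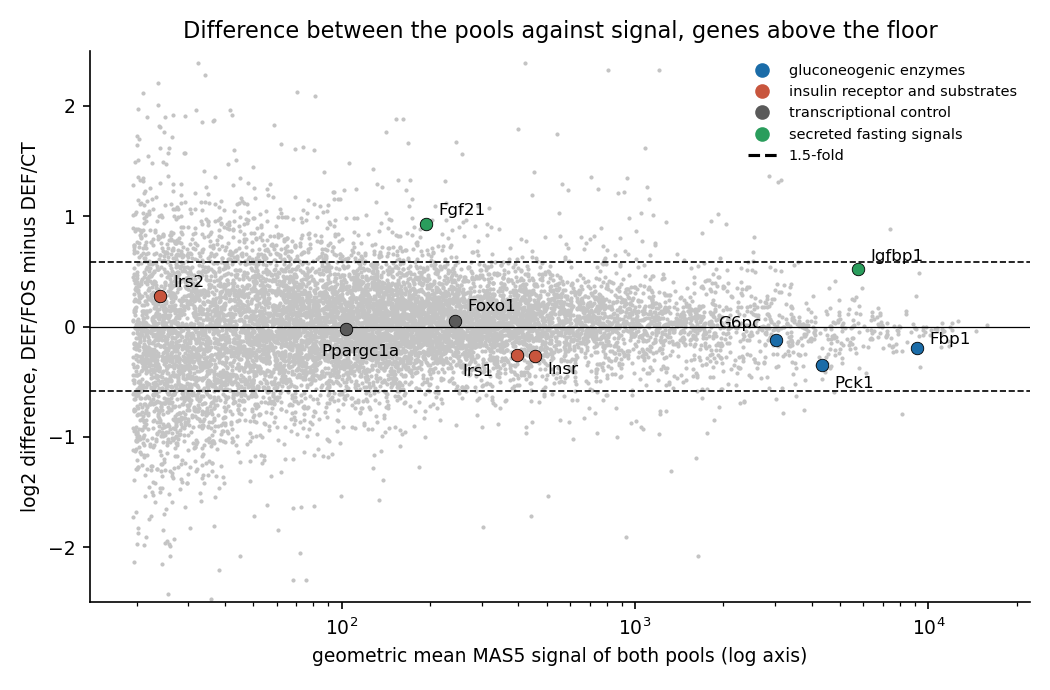
Log2 difference between the DEF/FOS and DEF/CT pools (vertical axis) against the geometric mean signal of both pools (log axis) for 11163 genes above the floor in grey, of which 24 lie beyond the axis limits of 2.5, with the 10 genes in colour and dashed lines at 1.5-fold. Fgf21 at 0.93 lies beyond the upper line, Igfbp1 at 0.52 just under it, and the other 8 genes between -0.35 and 0.28.

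Insr, the insulin receptor, had a signal of 415 (DEF/FOS) and 503 (DEF/CT) by its brightest probe set, 1.20-fold lower. Its other probe sets lay below the floor, with signals of 21.2 and 13.8 for one and 7.25 and 5.82 for the other. Both read higher in the DEF/FOS pool, but below the floor they carry no order. Irs1, the docking protein that carries the insulin and IGF1 signal to PI3-kinase, had signals of 359 and 434, also 1.20-fold lower. The log2 differences of Insr and Irs1, both -0.26, were 1.23 and 1.21 times the SD between probe sets at that signal, and 13.0% and 13.3% of genes in the same range had negative differences at least as large.

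Irs2, the substrate that dominates in fasting liver and is itself switched on by FOXO1, was represented by a single dim probe set. Its signal was 26.4 (DEF/FOS) and 22.0 (DEF/CT), close to the floor of 19.4. The difference of 0.28 was 0.520 times the SD of 0.54 among probe sets of one gene at signals from 19.4 to 49.0, so a difference of this size was not resolved.

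Foxo1, the transcription factor that insulin restrains, differed little and without a settled direction. Its brightest probe set read 245 (DEF/FOS) and 240 (DEF/CT), a difference of 0.05. The second read 195 and 214, at -0.12, and the third 120 and 164, at -0.43, or 1.35-fold lower. These 3 probe sets disagreed in sign, their SD was 0.24, and the sign of the gene's value turned to negative under quantile normalization, with the median over probe sets and when probe sets with suffixes for shared transcripts were dropped.

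Ppargc1a, the fasting-induced coactivator of the gluconeogenic genes, gave the closest match between the pools. Its 5 probe sets, all above the floor, read 102, 80.8, 75.7, 55.0 and 56.3 in the DEF/FOS pool and 105, 76.4, 74.4, 55.1 and 53.3 in the DEF/CT pool. Their log2 differences ran from -0.02 to 0.09 with an SD of 0.05, and the sign of a value so near 0 turned with no floor and with the median over probe sets. Among the 10 genes Ppargc1a is thus the one measured by most probe sets, and none of them read more than 1.07-fold apart.

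**Figure D3:**
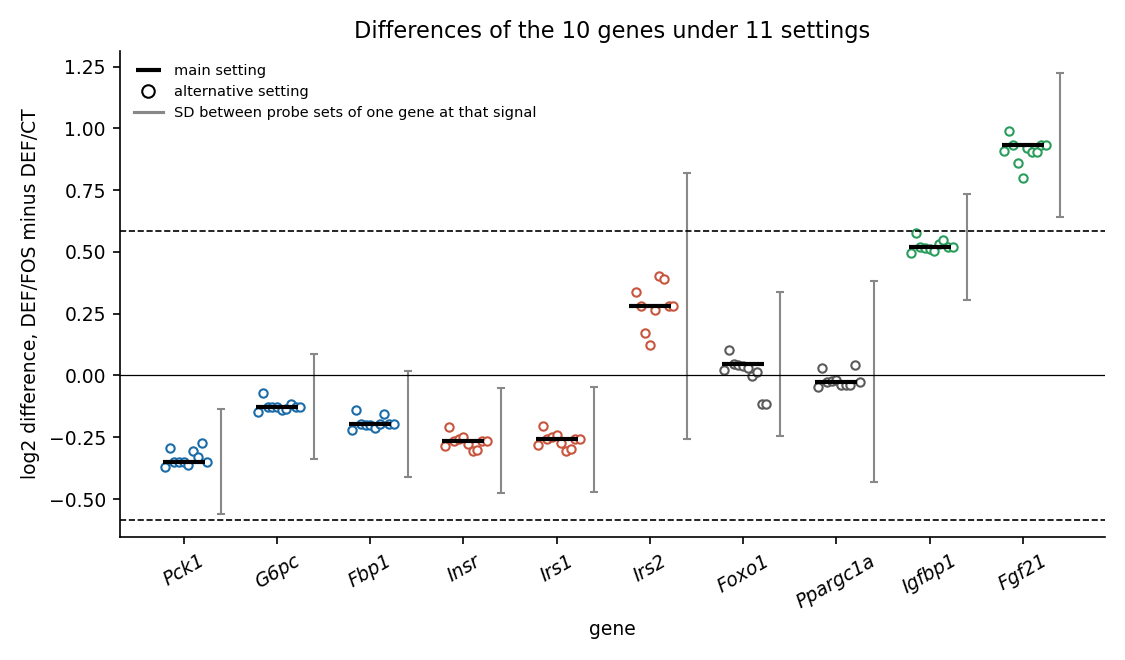
Log2 difference of each of the 10 genes in the main setting (black bars) and under the 10 alternative settings (open circles), with grey bars for 1 SD either way between probe sets of one gene at that signal and dashed lines at 1.5-fold. Fgf21 stays between 0.80 and 0.99, Igfbp1 between 0.50 and 0.57, and Foxo1 and Ppargc1a cross 0.

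Other genes of the pathways were read from 5 lists with 148 different genes, of which 133 had a probe set named for them alone and 128 lay above the floor. Of these, 4 exceeded 1.5-fold upwards in the DEF/FOS pool and 7 downwards, and their median difference was -0.11, beside 0.00 over all genes. These counts are 3.12% and 5.47% of the 128 genes, under the 6.75% and 7.82% of all genes. The shares are not matched for signal. Its median was 323 (DEF/FOS) and 375 (DEF/CT) for the 128 genes, beside 123 and 122 for all genes. At a floor on the 75th percentile, 244 of 6751 genes were at least 1.5-fold higher and 212 lower. The 5 lists, in the order below, then held 16, 29, 31, 20 and 14 genes. Of these, 0, 0, 2, 0 and 0 were higher and 1, 1, 1, 2 and 1 lower. Whether the pathway genes stand apart at like signal was not tested, and the list counts below carry this limit.

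Among other gluconeogenic and shared glycolytic enzymes, 1 of 18 genes above the floor exceeded 1.5-fold upwards and 1 downwards, and the median was 0.11. The higher one was Pck2, the mitochondrial PEPCK, at 51.3 (DEF/FOS) against 26.7 (DEF/CT), 1.94-fold higher, while its other probe set lay below the floor. The SD among probe sets was 0.54 at such low signals, and Pck2 no longer counted as 1.5-fold higher, or was not measured, with a floor at the 75th percentile, an offset of 32 or without probe sets with suffixes for shared transcripts. The lower one was Got1, the cytosolic aspartate aminotransferase of the malate-aspartate shuttle, at 975 against 1676, 1.70-fold lower. Pcx, the pyruvate carboxylase that opens the pathway, had signals of 963 and 1200, 1.23-fold lower, next to the small negative differences of Pck1, Fbp1 and G6pc.

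In the insulin signal relay and its brakes, 0 of 35 genes above the floor exceeded 1.5-fold upwards and 2 downwards, and the median was -0.11. Trib3, a pseudokinase that binds AKT, was 1.87-fold lower at 41.0 against 77.4 by its brightest probe set, but its other probe set differed by 0.26 the other way. Gab1, a docking protein beside the IRS proteins, was 1.54-fold lower at 99.8 against 155, and its other probe sets, at -0.51 and -0.41, shared that sign. Of 10 alternative settings, Gab1 was no longer past 1.5-fold in 5, at -0.57 to -0.50, and Trib3 was no longer past it, or not measured, in 4. With an offset of 32, with the median over probe sets or without probe sets with suffixes for shared transcripts, 0 genes of the list were lower by 1.5-fold. Akt2, the main AKT form of hepatic insulin action, had signals of 227 and 277 by its brightest probe set, 1.21-fold lower. Its next probe set read 57.3 and 79.7, 1.38-fold lower. Foxo3, the second FOXO factor of liver, had signals of 126 and 139, 1.09-fold lower by its brightest probe set and 1.36-fold lower by the next.

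Of 37 genes of glucagon, cAMP and glucocorticoid control, 3 exceeded 1.5-fold upwards and 1 downwards, and the median was -0.12. Fkbp5, a glucocorticoid-induced chaperone of the glucocorticoid receptor, was 2.36-fold higher at 254 against 109, with a second probe set at a log2 difference of 0.78. Crtc2, the CREB coactivator that glucagon brings into the nucleus, was 1.83-fold higher at 60.8 against 33.6, a call that, like that of Pck2, was not kept under those same 3 settings. Cebpb, a transcription factor that binds the Pck1 promoter, was 1.74-fold higher at 919 against 534, with a second probe set at 0.87.

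The lower gene of that list was Ppargc1b, the relative of Ppargc1a, at 136 against 234, 1.70-fold lower, so that the paralogues read differently on these arrays. Gcgr, the glucagon receptor, had signals of 471 and 668, 1.41-fold lower. Tat, tyrosine aminotransferase, a classical target of glucagon and glucocorticoids, had signals of 3338 and 3493, 1.04-fold lower. Regulators upstream of Pck1 and G6pc thus lay on both sides of 0.

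**Figure D4:**
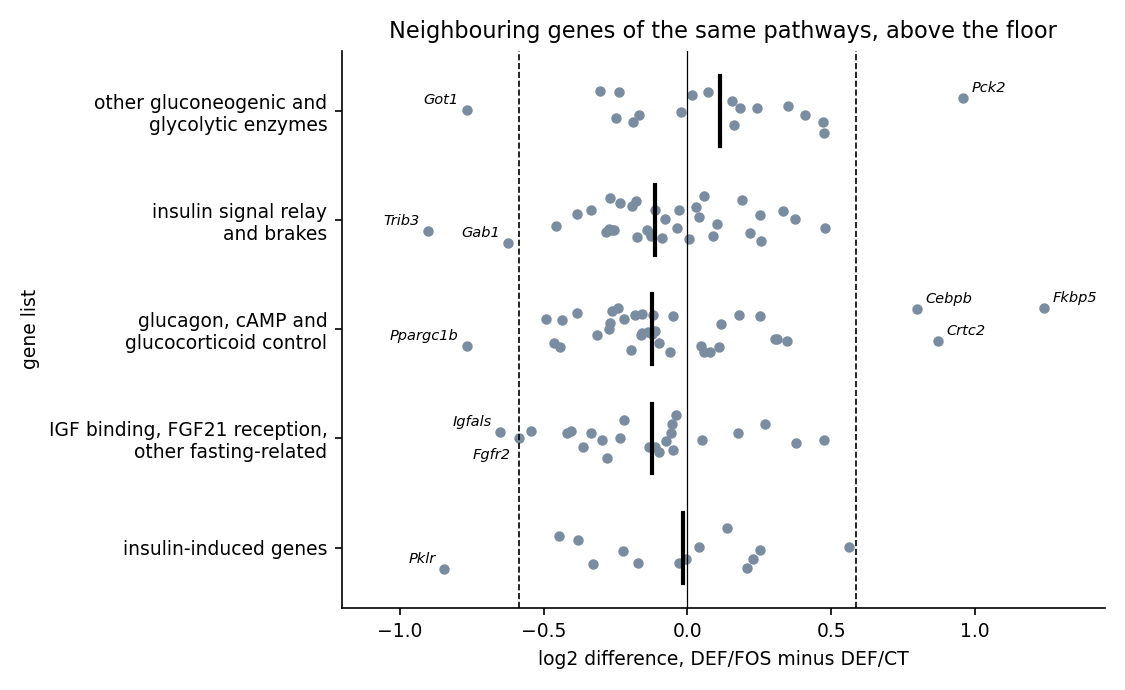
Log2 differences between the DEF/FOS and DEF/CT pools (horizontal axis) of the genes above the floor in 5 lists of neighbouring pathway genes, 1 point per gene, with a black bar at the median of each list, dashed lines at 1.5-fold and names beside the genes past them. Fkbp5 at 1.24 lies farthest to the right and Trib3 at -0.90 farthest to the left, and the medians run from -0.12 to 0.11.

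In the list of IGF binding, FGF21 reception and other fasting-related genes, 0 of 24 genes above the floor exceeded 1.5-fold upwards and 2 downwards, and the median was -0.12. Igfals, the acid-labile subunit that holds IGF1 in the circulating complex, was 1.57-fold lower at 233 against 370. Fgfr2, an FGF receptor, was just past that threshold at 162 against 245, a log2 difference of -0.59. It was not past it in 5 of the 10 alternatives, namely no floor, an offset of 16 or 32, the median over probe sets, and without probe sets with suffixes, where it lay below the floor. Igf1, the growth hormone-driven ligand that Igfbp1 binds, had signals of 2659 and 3452, 1.29-fold lower, with all 4 of its probe sets between -0.40 and -0.29. Igfbp2, another binding protein that insulin lowers, had signals of 3649 and 2839, 1.30-fold higher, in the same direction as Igfbp1.

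Klb and the FGF receptors lay near 0 or below it, with Fgfr2 given above and Fgfr1 and Fgfr3 at log2 differences of -0.05 and -0.22. Klb, the coreceptor, had signals of 310 (DEF/FOS) and 302 (DEF/CT), a log2 difference of 0.05. Fgfr4, the main FGF receptor of hepatocytes, had signals of 174 and 207, 1.18-fold lower, although 1 of its probe sets above the floor had the opposite sign.

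In genes that insulin induces, 0 of 14 exceeded 1.5-fold upwards and 1 downwards, and the median was -0.02. The lower one was Pklr, liver pyruvate kinase, which opposes gluconeogenesis, at 412 against 747, 1.80-fold lower with 3 of 3 probe sets at -0.59 or below.

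RNA of other tissues differed between the pools and stands beside these results. Of 20 skeletal muscle markers, 14 of the 15 above the floor exceeded 2-fold downwards in the DEF/FOS pool, and the summed signal of all 20 was 237 (DEF/FOS) and 3513 (DEF/CT). Single markers ran from 0.950 to 35.5 in the DEF/FOS pool, 15 of them below the floor, and from 15.5 to 677 in the DEF/CT pool, and Tnnc2, Myl1 and Myh1 were at least 23.7-fold, 10.6-fold and 13.1-fold lower, computed against the floor. Muscle also expresses genes reported here, among them Insr, Irs1, Foxo1, Ppargc1a and Ppargc1b. The part of muscle RNA was not tested for these or for any other gene above. Exocrine pancreas markers had a summed signal of 1408 (DEF/FOS) and 2042 (DEF/CT) over 9 genes, led by Cela1, 2.03-fold lower, with Cela2a and Cpa1 1.57-fold and 1.39-fold lower. Of the 9 pancreas markers 7 were lower and 2 higher, Prss2 by 1.30-fold and Clps by 1.11-fold. Neutrophil markers summed to 435 and 180 over 8 genes, with Lcn2, S100a8 and S100a9 5.79-fold, 4.38-fold and 3.16-fold higher. That sum rests on these 3 genes: the other 5 summed to 59.4 (DEF/FOS) and 90.7 (DEF/CT). Of these 5, Ngp was 1.08-fold higher, Elane was 1.23-fold lower, and Camp, Ltf and Mpo, below the floor, had lower signals in the DEF/FOS pool. The part of pancreas and neutrophil RNA in the results was likewise not tested, and neither was the cell type that gave the 3 higher genes. In bulk RNA, fewer cells of a type and less RNA per cell cannot be told apart.

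Of 10 hepatocyte markers, 0 differed by 1.5-fold between the pools, with a median of -0.03, and albumin (Alb) read 11023 (DEF/FOS) and 11303 (DEF/CT). Such likeness between the pools does not by itself show their tissue. Median differences were 0.22 for 11 Kupffer cell markers, 0.00 for 8 endothelial, -0.12 for 8 stellate, 0.51 for 3 bile duct and 0.02 for 2 adipocyte markers above the floor. The adipocyte value is the midpoint of Car3 at -0.37 and Lipe at 0.41, which lay on opposite sides of 0. Adipoq, Lep, Retn and Cidea lay below the floor. The bile duct markers were dim: Krt19 read 26.1 (DEF/FOS) and 17.2 (DEF/CT), Sox9 41.3 and 29.4, and Epcam 37.8 and 33.6. At such signals the SD among probe sets of one gene was 0.54. Marco, a scavenger receptor of Kupffer cells, was the 1 of its 11 markers past 1.5-fold, at 131 against 61.6 or 2.14-fold higher, with its second probe set at 1.11.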

How the data were processed

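Liver RNA pools of the DEF/FOS and DEF/CT groups were measured on 1 Affymetrix array each. The authors deposited the MAS5 intensity of 45101 probe sets, not log-transformed. The submitters' processing notes name MAS5 and GCOS without versions, and the table holds no detection calls. The trimmed mean of each array, with 2% left out at each end, was 100.0. The number of arrays limits the precision, and each pool counts as 1 sample.

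Gene names came from the platform annotation, and the Entrez identifiers of all 10 genes matched the same symbols in the RefSeq table of GRCm38.p6. The 64 array controls were left out. Differences were log2 signals without offset (an offset of 0), centred by removing the median of -0.01. The brightest probe set, by mean log2 signal, stood for a gene. Calls were counted at 1.5-fold and 2-fold. The genes named are the 10 genes, up to 4 genes past 1.5-fold in each of 5 pathway lists, 10 genes named by symbol, and up to 3 genes of largest difference in the marker lists, of which those that bear on the results are printed. The 10 genes and the lists were chosen with earlier results of these data known. The computation was tested on simulated data with known fold changes and noise drawn for each probe set. The simulation held no spread between mice, pools or tissues. Python 3.11.15, numpy 2.4.6, pandas 2.3.3, statsmodels 0.14.6 and matplotlib 3.10.9 were used. In all, 10 alternative settings were run. The groups kept on DEF or CT alone are not analysed here.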

Additional observations from a re-analysis of the deposited data

How the results depend on the processing

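Over 11 settings the counts of the 10 genes past 1.5-fold and 2-fold were the same as in the main setting, with 9 genes left at a floor on the 75th percentile, where Irs2 dropped out. Pck1, G6pc, Fbp1, Insr and Irs1 were lower and Igfbp1 and Fgf21 higher in all 11, and Irs2 was higher in the 10 that kept it. Pck1 ran from -0.37 to -0.27, G6pc from -0.15 to -0.07, Fbp1 from -0.22 to -0.14, Insr and Irs1 from -0.31 to -0.21 and -0.20, and Irs2 from 0.12 to 0.40. Foxo1 ran from -0.12 to 0.10 and Ppargc1a from -0.05 to 0.04. Over all genes, those at least 1.5-fold higher and lower numbered 244 and 212 at the 75th percentile floor, 2856 and 3546 with no floor, 435 and 458 with an offset of 16 and 278 and 258 with an offset of 32, against 754 and 873. These alternatives change how many dim genes enter or how far they spread. Of 100 counts of the pathway lists past 1.5-fold under alternatives, 22 changed, 18 of them by more than 1.5 times or to or from 0. Of their 50 medians, 2 changed sign, both of the insulin-induced list (0.04 with no floor and 0.01 with the median over probe sets), and the largest move was 0.09. Leaving out a replicate was not possible with 1 array per group. No paired analysis was possible because each group has 1 pooled array. Signal near the floor limits Irs2 most, and the pools leave the spread between mice unmeasured.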

Other observations

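Several enzymes and regulators next to the 10 genes lay just short of 1.5-fold with all their probe sets on one side, and were singled out after their values were seen. Me1, the cytosolic malic enzyme, was 1.48-fold and, by its second probe set, 1.37-fold higher in the DEF/FOS pool. Slc25a10, the mitochondrial dicarboxylate carrier that exports malate, was 1.39-fold and 1.37-fold higher. Lpin1, a phosphatidate phosphatase that also acts as a coactivator with PGC-1α, was 1.39-fold and 1.30-fold higher, and Ptpn1, the phosphatase that removes phosphate from the insulin receptor, 1.39-fold and 1.26-fold higher. Cited2, a coactivator partner in the gluconeogenic response to glucagon, was 1.46-fold and 1.25-fold lower. Gys2, liver glycogen synthase, was 1.36-fold lower by its single probe set. Such sizes were not rare. Of all genes above the floor, 8.47% lay at least as far up as Igfbp1 at 1.43-fold, and 3.98% of those with signals above 324. The genes named here are a selection. In the same lists Klf9, Pde4b and Ppara were 1.35-fold, 1.38-fold and 1.34-fold lower, with no probe set above the floor of opposite sign. Gpd1 disagreed with itself, at 1.38-fold higher for one probe set and 2.27-fold lower for another above the floor. None of these genes has a replicate check.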
